A study of Mus musculus and Homo sapiens with 27 samples.

Results

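The comparison was between cultured mouse splenic B cells lacking Irf4 on both alleles (Irf4-/-, KO) and cells lacking it on 1 allele (Irf4+/-, Het), both after 96 h with lipopolysaccharide (LPS), a component of bacterial walls that activates B cells through TLR4. It used 3 KO and 4 Het arrays, 7 of the 27 arrays of the series, chosen by the genotype and time in the array titles. All cells came from the spleens of adult Balb-c mice. They grew in RPMI with serum, and the labels write the LPS dose as 20 to 25 mg/ml. No wild-type cells entered the comparison, so it sets loss of both alleles against loss of 1. Each array was a lymphochip, which carries spotted cDNAs of lymphocyte genes, hybridised with the B-cell RNA and with a common pool of RNA from 21 B-cell, T-cell and monocyte lines. A level is therefore a log2 ratio over that pool, with the median of each array set to 0. Above or below the pool here means above or below that median ratio. A difference of -1 means a level in KO cells lower by a factor of 2 than in Het cells. The design text speaks of biological repeats, but the labels do not say whether arrays came from separate mice, and p-values measure the spread between these arrays.

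IRF4 is a transcription factor of the interferon regulatory factor family. In activated B cells it is known to be required for immunoglobulin class switching and for the plasma cell programme, in which Blimp-1 (encoded by Prdm1) and XBP1 act, the endoplasmic reticulum (ER) expands and antibody is secreted. IRF4 binds DNA weakly alone and more strongly with ETS-family partners at composite elements.

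The features with 1 gene symbol gave 331 genes, of which 109 rested on 1 feature. Irf4 was not among them, so its loss was not checked on these arrays. Cd79b, which encodes a signalling chain of the B-cell receptor, lay above the pool on all 7 arrays, at 1.99, 2.46 and 2.30 in KO cells and at 2.37, 2.87, 2.77 and 2.66 in Het cells. Over the genes, correlations lay between 0.70 and 0.79 among KO arrays, between 0.76 and 0.89 among Het arrays and between 0.49 and 0.73 across genotypes. Deposited values spread by a standard deviation of 1.04 to 1.19 on the KO arrays and 1.09 to 1.79 on the Het arrays, with Het 3 and Het 4 at 1.79 and 1.66.

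At 96 h the antibody joining chain, a lambda variable gene, plasma cell regulators and part of the ER stress machinery were lower in KO cells, together with a cytokine inhibitor, 2 TRIM genes and 2 ectoenzymes. With limma and Benjamini-Hochberg adjustment over the 331 genes, 23 genes were lower (6.95%) and 2 were higher (0.604%) at an adjusted p under 0.05, 7.55% in either direction. All 25 had groups that did not overlap, and 21 of the 23 lower genes differed over 2-fold. At an unadjusted p under 0.05 there were 57 genes, 42 lower and 15 higher. Of the 23, 11 lay above the pool on every Het array and below it on every KO array, and 16 rested on 1 feature. The 23 were picked by their difference, and the share of all genes with that pattern is not given. The 11 are therefore a description only. The number of calls depended on which arrays were used. It was 9 with 1 mean per genotype and time fitted to all 23 mouse arrays, 38 with array weights, 11 without KO 2, 15 without KO 3, and 16 without Het 2 or without Het 3. Titles carry a number of the authors' database. Within the 1 range of it that held both genotypes (KO 1 and 2, Het 3 and 4), 21 genes passed, of which 19 were among the 25. Every Het number (63176 to 63363) came before every KO number (63370 to 63649), also within that range. Genotype and the order of the numbers therefore cannot be told apart. The 25 genes kept their sign under all 17 alternatives. Alternatives that left out or reweighted arrays could not reverse a sign, because the groups of these genes did not overlap. Of the 25, 8 passed under every alternative: Jchain, Adck1, Trim27, Trim65, Socs2, Ints7, Iglv1 and Entpd1. The median difference of all 331 genes was -0.07. In bulk RNA, fewer cells of a type and less RNA per cell cannot be told apart.

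**Figure D1:**
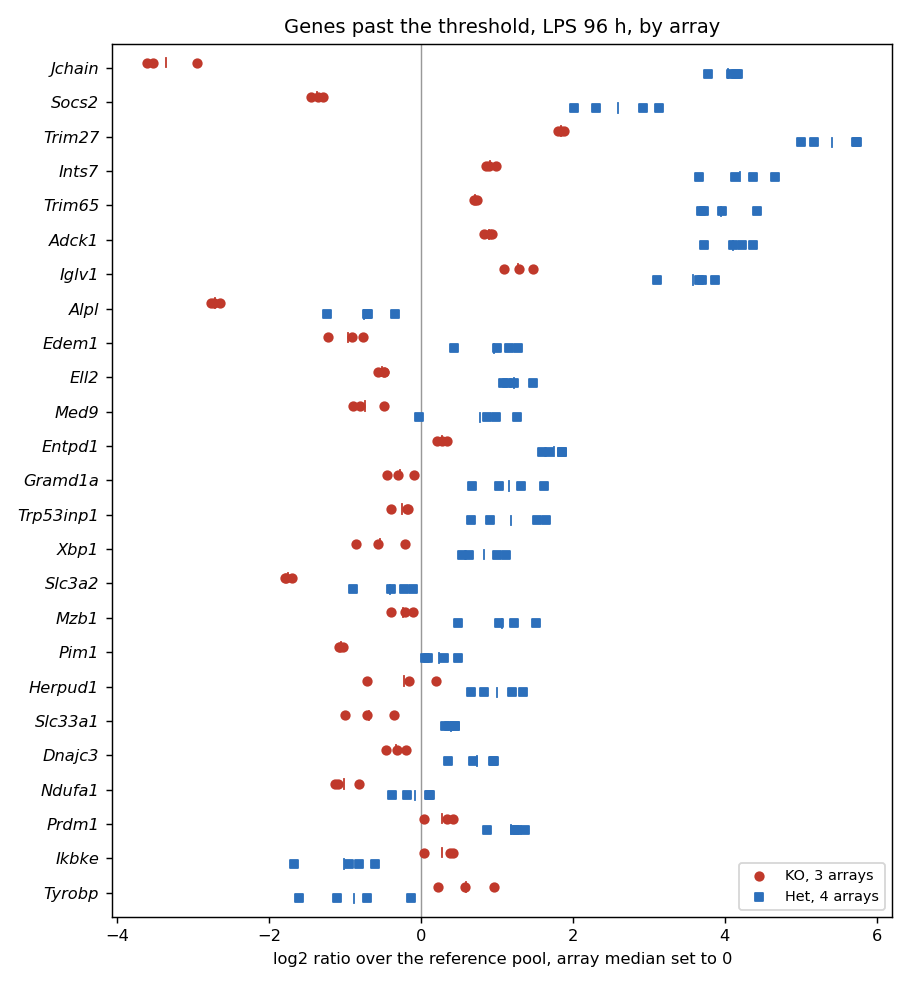
Levels of the 25 genes past the threshold on each array, as log2 ratios over the reference pool with the array median at 0. Circles are the 3 KO arrays, squares the 4 Het arrays and short vertical lines the group means; no gene has overlapping groups, and only Ikbke and Tyrobp lie higher in KO cells.

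**Figure D2:**
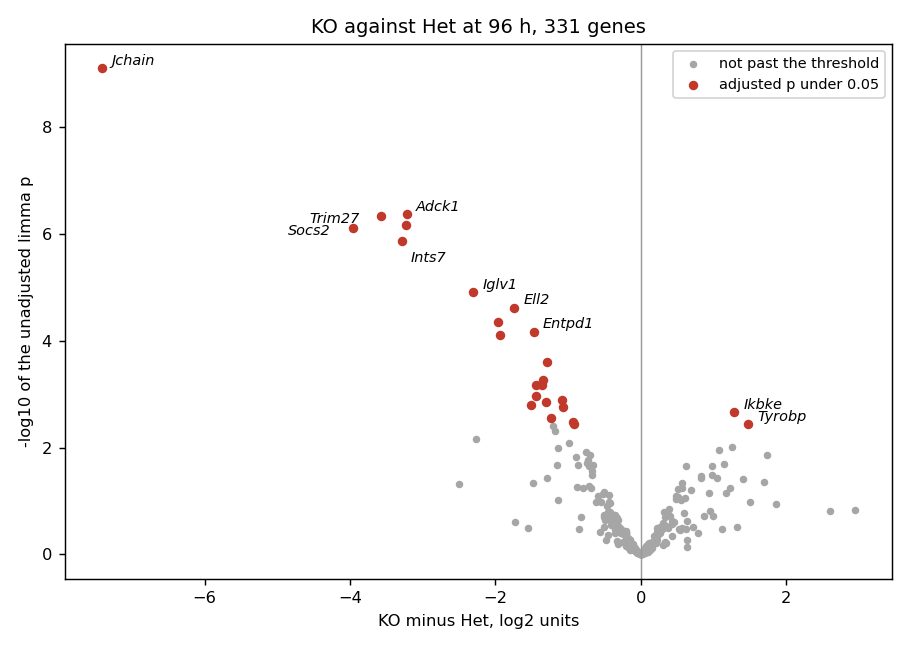
Difference KO minus Het at 96 h (x axis, log2 units) against the -log10 of the unadjusted limma p (y axis) for the 331 genes. Filled red points are the 25 genes with an adjusted p under 0.05, of which 23 lie left of 0 and Jchain lies farthest left at -7.41.

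Of 35 listed genes of plasma cells and antibody secretion, 8 were measured. Of the 8, 7 were lower in KO cells past the threshold, against 6.95% of all genes, and the median difference was -1.36. The gene lists were chosen with earlier results of these data known, so such shares are no test of a group. Of the 189 genes in no list, 1 was called. Jchain encodes the chain that joins IgM and IgA into polymers. Its level was -3.53, -2.95 and -3.60 on the KO arrays, against 3.78, 4.18, 4.09 and 4.15 on the Het arrays. Jchain thus lay below the pool on every KO array and above it on every Het array, with a difference of -7.41 ± 0.25 (SE, 3 against 4 arrays; limma adjusted p 2.6e-07). Iglv1, a lambda light chain variable gene, was at 1.47, 1.28 and 1.09 in KO cells, against 3.11, 3.87, 3.66 and 3.70 in Het cells. Both genotypes lay above the pool for Iglv1, and the groups were apart (-2.30 ± 0.25, limma adjusted p 0.000585). Its 2 features gave -1.60 and -3.01.

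The regulators in this group were lower by less than Jchain. Ell2, a transcription elongation factor known to favour the secreted form of immunoglobulin heavy chain mRNA, was at -0.49, -0.48 and -0.57 in KO cells, against 1.22, 1.48, 1.08 and 1.13 in Het cells. No KO array reached the lowest Het array, and the difference was -1.74 ± 0.21 (limma adjusted p 0.000995). Xbp1, the transcription factor of the unfolded protein response that drives secretory expansion, was at -0.85, -0.56 and -0.20 in KO cells, against 0.63, 0.54, 1.00 and 1.12 in Het cells. Its groups were apart (-1.36 ± 0.26, limma adjusted p 0.0147), but its 3 features differed in size, at -0.57, -0.91 and -2.62, and with their median it was not past the threshold. Prdm1, which encodes Blimp-1, was at 0.05, 0.43 and 0.34 in KO cells, against 1.26, 1.24, 1.37 and 0.87 in Het cells. Prdm1 levels did not overlap, and its difference of -0.91 ± 0.23 lay at the threshold (limma adjusted p 0.0481), which it passed under 5 of the 17 alternatives.

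Mzb1, an ER chaperone of B cells, was at -0.11, -0.40 and -0.21 in KO cells, against 0.49, 1.03, 1.22 and 1.51 in Het cells. Slc3a2, the heavy chain of amino acid transporters (CD98), was at -1.79, -1.78 and -1.70 in KO cells, against -0.89, -0.39, -0.22 and -0.10 in Het cells. Both were lower without overlap, Mzb1 by -1.30 ± 0.28 and Slc3a2 by -1.35 ± 0.25 (limma adjusted p 0.0261 and 0.0138). Sdc1, the plasma cell surface proteoglycan syndecan-1, went the other way, at -0.73, -0.92 and -1.15 in KO cells, against -1.43, -2.22, -2.02 and -3.10 in Het cells. Every KO array lay above every Het array for Sdc1, but the difference of 1.26 ± 0.38 did not pass (limma adjusted p 0.107), and its 2 features gave 0.27 and 2.25. Sdc1 passed with array weights and without Het 1. The count of lower genes in this group was 2 with all 23 arrays in the fit, 3 without KO 1, 3 without KO 2 and 4 without KO 3. As for markers of other cell types, Tyrobp alone of 6 measured passed, against 7.55% of all genes in either direction. With 6 genes, 1 call cannot be set apart from that share. The mean level of the 3 measured myeloid markers was 0.80 to 1.60 on the KO arrays and -0.25 to 0.68 on the Het arrays, and that of the 3 T and NK markers -1.24 to 0.07 on the KO arrays and -1.49 to -0.72 on the Het arrays. The genotypes were apart in the myeloid mean and overlapped in the T and NK mean. Their part in the result was not tested.

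Of 62 listed genes of ER translocation, folding and ER stress, 14 were measured. Of these, 13 had a difference below 0, with a median of -0.71, and 4 were lower past the threshold, against 6.95% of all genes. Those 4 were Edem1, Mzb1, Dnajc3 and Herpud1. Edem1 recognises misfolded glycoproteins for ER-associated degradation. Its level was -0.76, -1.23 and -0.91 in KO cells, against 0.43, 1.00, 1.16 and 1.27 in Het cells. KO arrays were all below the pool and Het arrays all above it (-1.93 ± 0.27, limma adjusted p 0.00233). Dnajc3, a co-chaperone that restrains the eIF2-alpha kinase PERK, was at -0.31, -0.47 and -0.20 in KO cells, against 0.36, 0.69, 0.97 and 0.95 in Het cells. Herpud1, a membrane protein of the degradation complex, was at -0.71, -0.16 and 0.20 in KO cells, against 0.66, 0.83, 1.20 and 1.34 in Het cells. Neither overlapped between genotypes, and the differences were -1.07 ± 0.24 and -1.23 ± 0.30 (limma adjusted p 0.0292 and 0.042). They passed under 9 and 7 of the 17 alternatives.

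Sel1l, the scaffold of the degradation complex, and Sec61g, a subunit of the translocation channel, also had groups apart, without passing. Sel1l was at -0.43, 0.08 and -0.08 in KO cells, against 0.31, 0.77, 1.20 and 1.70 in Het cells (-1.14 ± 0.34, limma adjusted p 0.108). Sec61g differed by -0.74 ± 0.26 (limma adjusted p 0.164). Tmed10, a cargo receptor of vesicles, had 1 KO array at 3.35 and the others at -3.26 and -3.38, against -0.29 to 1.28 in Het cells, and its difference was -1.55 ± 1.48 (limma adjusted p 0.771). Without KO 1 the difference was -3.77 (limma adjusted p 0.00113), and without KO 2 or KO 3 it was -0.46 or -0.40. In all, 7 of the 14 had lower, non-overlapping KO levels, against 12.7% of all genes. This list too was chosen with earlier results known, so the share is no test of the group. The group had 0 calls with all 23 arrays in the fit and 1, Edem1, without KO 2, KO 3, Het 2 or Het 3. Without Het 4, Edem1 and Mzb1 passed, and without KO 1, Edem1 and Tmed10. Sel1l passed without Het 1. The marker levels given above stand beside this group too. Among 8 measured Golgi and vesicle traffic genes, 0 passed in either direction by limma and 2 had an unadjusted p under 0.05, with a median of -0.04. St6gal1, a sialyltransferase, was apart and lower (-0.89 ± 0.29), and Hs2st1, a heparan sulphate sulphotransferase, was apart and higher (1.70 ± 0.72), with limma adjusted p of 0.135 and 0.271. The Hs2st1 difference was 1.15 without Het 4, 0.84 with quantile normalization, and 3.04 in the range of database numbers with both genotypes.

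**Figure D3:**
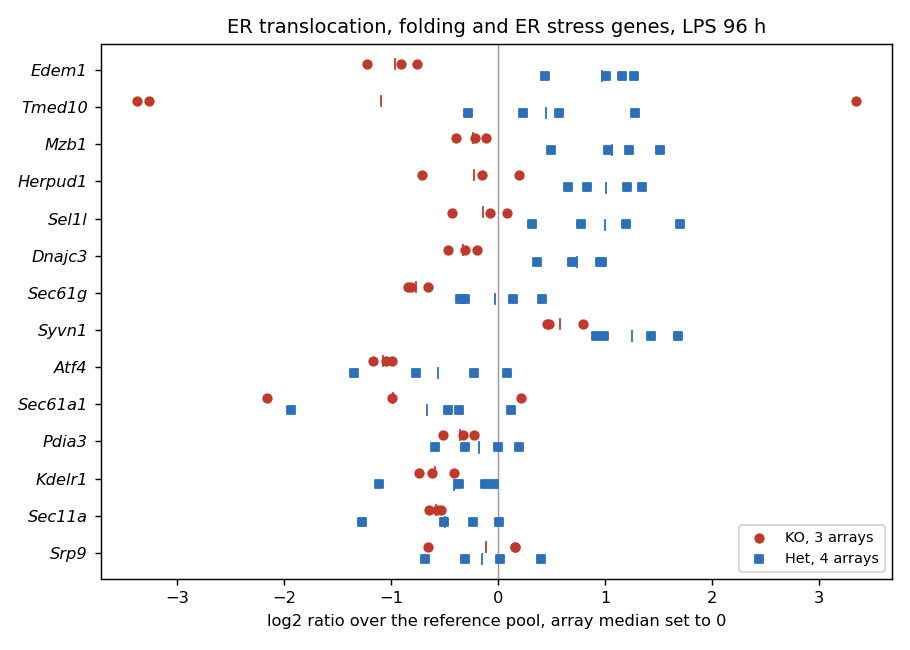
Levels of the 14 measured genes of ER translocation, folding and ER stress on each array, as log2 ratios over the pool with the array median at 0, ordered by difference. Circles are KO arrays, squares Het arrays and short lines group means; KO and Het are apart for 7 genes, and Tmed10 has 1 KO array at 3.35 and 2 below -3.

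Promoter sequences were read for the lower genes to show the stretches that hold elements known for IRF4 or for ER stress. RefSeq gave a promoter for 18 of the 23 lower genes, and the 250 bases before the start were searched on both strands. The ETS-IRF composite element (GGAA and GAAA, 2 bases apart) matched 1 of the 18, Adck1. It matched 3.383% of the 266 tested genes with a promoter, and 2.679% of all 27025 genes with a promoter. The interferon-stimulated response element (GAAA and GAAA, 2 bases apart) matched 0 of the 18, 3.383% of tested genes, and 3.463% of all genes. The ER stress element (CCAAT and CCACG, 9 bases apart) matched 1, Dnajc3, 0.752% of tested genes, and 0.13% of all genes. The unfolded protein response element (TGACGTGG) matched 0 of the 18, 0.752% of tested genes, and 0.603% of all genes. Then ER stress element II (ATTGG and CCACG, 1 base apart) was added after those 4 had been searched, because it is known from the human HERPUD1 promoter. It matched 1, Herpud1, 0.376% of tested genes, and 0.037% of all genes. The last match was therefore looked for in that gene. The matches are in capitals in the stretches of Adck1 and Dnajc3 printed here, from RefSeq on GRCm38.p6, both on the + strand.
Adck1, chr12:88360388-88360507: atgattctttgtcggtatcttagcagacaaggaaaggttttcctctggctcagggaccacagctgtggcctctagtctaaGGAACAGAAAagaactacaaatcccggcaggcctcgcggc
Dnajc3, chr14:118937756-118937875: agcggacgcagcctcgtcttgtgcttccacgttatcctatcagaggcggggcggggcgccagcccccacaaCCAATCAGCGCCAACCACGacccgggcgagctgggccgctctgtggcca
A match is a description of letters and no measure of binding.

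A set of 5 genes of other functions differed by more than 3 log2 units. Socs2, an inhibitor of cytokine receptor signalling, was at -1.45, -1.35 and -1.29 in KO cells, against 2.02, 2.30, 2.93 and 3.13 in Het cells. It lay below the pool on all KO arrays and above it on all Het arrays (-3.96 ± 0.31, limma adjusted p 5.15e-05). Trim27, a ubiquitin ligase of the tripartite motif family, was at 1.88, 1.80 and 1.84 in KO cells, against 5.17, 5.01, 5.74 and 5.73 in Het cells. Trim65, of the same family, was at 0.71, 0.73 and 0.70 in KO cells, against 3.96, 4.42, 3.73 and 3.69 in Het cells. For both, KO arrays lay within 0.1 of each other and far from Het, with differences of -3.57 ± 0.26 and -3.23 ± 0.25 (limma adjusted p 5.06e-05 and 5.15e-05). Of 3 measured genes of ubiquitin ligases, the proteasome and the TRIM family, these 2 were lower, against 6.95% of all genes. The third, the proteasome subunit Psmd1, differed by -0.04 ± 0.32, a sign that changed with the processing.

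Ints7, a subunit of the Integrator complex that acts on RNA polymerase II transcripts, was at 0.86, 0.99 and 0.90 in KO cells, against 3.67, 4.13, 4.37 and 4.66 in Het cells. Adck1, a mitochondrial protein of the atypical kinase family, was at 0.94, 0.91 and 0.84 in KO cells, against 3.72, 4.23, 4.11 and 4.38 in Het cells. These were lower without overlap, by -3.29 ± 0.27 and -3.21 ± 0.23 (limma adjusted p 7.3e-05 and 5.06e-05). Each of the 5 rested on 1 feature, and each passed under all 17 alternatives. Trim27, Trim65, Ints7 and Adck1 had similar differences, from -3.57 to -3.21, and similar profiles before LPS. KO arrays at 0 h were at 2.53, 1.74 and 1.37 for Adck1 and at 2.71, 1.95 and 1.26 for Trim65. They were at 2.76, 1.61 and 1.33 for Ints7 and at 3.27, 2.75 and 1.90 for Trim27. Whether these features read separate transcripts was not tested.

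Cytokine signalling had 4 measured genes, of which Socs2 and the kinase gene Pim1 were lower, against 6.95% of all genes. Pim1, a serine kinase gene induced by cytokine receptors, was at -1.07, -1.02 and -1.09 in KO cells, against 0.05, 0.09, 0.31 and 0.48 in Het cells. Every KO array lay below the pool and every Het array above it (-1.29 ± 0.21, limma adjusted p 0.00679). Fes, a tyrosine kinase gene, was apart and higher at -0.25, -0.21 and -0.07 in KO cells, against -0.77, -1.05, -3.35 and -1.19 in Het cells (1.42 ± 0.58, limma adjusted p 0.238). Without Het 3 its difference was 0.83. Of 2 measured NF-kB and TLR genes, Ikbke was higher in KO cells, against 0.604% of all genes called higher. Traf4 differed by -0.08 ± 0.30, a sign that changed with the processing. Ikbke, an IKK-related kinase of innate signalling, was at 0.38, 0.42 and 0.04 in KO cells, against -0.94, -0.82, -0.61 and -1.68 in Het cells. Its groups were apart (1.29 ± 0.30, limma adjusted p 0.034), and it passed under 8 of the 17 alternatives.

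Among 8 measured ectoenzymes and surface proteins, 2 were lower, against 6.95% of all genes, and 0 higher, with a median of -0.51. Entpd1, which encodes the ATP-degrading ectoenzyme CD39, was at 0.21, 0.28 and 0.35 in KO cells, against 1.69, 1.85, 1.85 and 1.59 in Het cells. Alpl, the tissue-nonspecific alkaline phosphatase, was at -2.77, -2.73 and -2.65 in KO cells, against -1.23, -0.71, -0.70 and -0.34 in Het cells. Both had groups apart (-1.47 ± 0.20 and -1.97 ± 0.26, limma adjusted p 0.00226 and 0.00162). Ptprcap, a CD45-associated protein, was apart and lower without passing (-0.70 ± 0.22, limma adjusted p 0.13) and passed without Het 1. Apart and lower as well was the adenosine-degrading enzyme gene Ada (-0.71 ± 0.32, limma adjusted p 0.304).

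Of 18 measured genes of metabolism and transport, 3 were lower, against 6.95% of all genes, and 0 higher, with a median of -0.26. These were Adck1, Slc3a2 and Ndufa1. Ndufa1, a subunit of respiratory complex I, was at -1.14, -1.10 and -0.82 in KO cells, against -0.38, 0.12, -0.19 and 0.11 in Het cells. Its difference of -0.93 ± 0.23 passed narrowly (limma adjusted p 0.0481), and under 7 of the 17 alternatives. Slc7a5, the light chain that pairs with the Slc3a2 product, was apart and lower (-0.73 ± 0.25, limma adjusted p 0.15). Prdx4, an ER peroxidase, was at -2.11, -1.67 and -1.63 in KO cells, against -1.26, -0.60, -0.57 and -0.08 in Het cells (-1.18 ± 0.31, limma adjusted p 0.0588). Gstt2, a glutathione transferase, was apart and lower by -0.76 ± 0.24. The metallothionein gene Mt2 had overlapping groups, and its 2 features gave 0.45 and 1.85. Without Het 1, Prdx4, Gstt2 and Slc7a5 passed, and without Het 4, Mt2.

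Slc33a1, an acetyl-CoA transporter of the ER membrane and the 1 called gene outside the groups, was at -0.71, -1.003 and -0.36 in KO cells, against 0.37, 0.45, 0.31 and 0.45 in Het cells (-1.09 ± 0.23, limma adjusted p 0.0245). Of 8 measured genes of transcription machinery and chromatin, Ints7 and Med9 were lower, against 6.95% of all genes, and the median was -0.27. Med9, a Mediator subunit, was at -0.49, -0.89 and -0.81 in KO cells, against -0.03, 0.98, 0.87 and 1.27 in Het cells (-1.50 ± 0.33, limma adjusted p 0.0277). Both genes had groups apart. Gabpa, an ETS-family transcription factor, just missed the threshold, at 1.24, 0.79 and 0.85 in KO cells, against 1.46, 2.41, 2.26 and 2.55 in Het cells (-1.21 ± 0.31, limma adjusted p 0.0502), and it passed without Het 1. Of 13 measured genes of cytoskeleton, adhesion and scaffolds, Gramd1a alone passed, a count near the 6.95% of all genes called lower. Gramd1a, a sterol transport protein, was at -0.09, -0.44 and -0.31 in KO cells, against 0.67, 1.03, 1.32 and 1.62 in Het cells (-1.44 ± 0.27, limma adjusted p 0.0147).

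Of 12 measured genes of mature and resting B cells, Trp53inp1 was lower and 0 were higher, with a median of -0.09. That count is near the 6.95% of all genes called lower. Trp53inp1, a p53-induced regulator of autophagy and cell death, was at -0.19, -0.39 and -0.17 in KO cells, against 0.65, 0.91, 1.53 and 1.65 in Het cells (-1.43 ± 0.30, limma adjusted p 0.0224). Id3, an inhibitor of E proteins, was apart and lower without passing (-0.65 ± 0.23, limma adjusted p 0.164). Cd79b differed by -0.42 ± 0.23, with overlapping levels. The mean level of the 12 genes was 1.27 to 1.32 on the KO arrays and 1.19 to 1.85 on the Het arrays.

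Genes of division and growth were not called. The 11 measured cell cycle and replication genes had differences between -0.41 and 0.79 and a median of -0.09, with 0 past the threshold by limma and 0 at an unadjusted p under 0.05. Standard errors in that group were 0.27 to 0.89. Ccnd1, which encodes cyclin D1, was apart at -2.92, -2.01 and -2.70 in KO cells, against -3.17, -3.001, -3.81 and -2.92 in Het cells, by a margin of under 0.01 (0.69 ± 0.32, limma adjusted p 0.314), and with quantile normalization its difference was -0.17. Its features gave -0.04 and 1.41, and without KO 2 its difference was 0.42. The 7 measured genes of growth, MYC and the nucleolus had a median of -0.18, the 9 survival and death genes 0.06, the 7 interferon and antigen processing genes 0.04 and the 8 RNA processing and translation genes -0.21, with 0 calls in each. At an unadjusted p under 0.05 these groups held 0 genes, except Nup153 among the translation genes. That they missed the threshold does not show that the levels were alike.

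**Figure D4:**
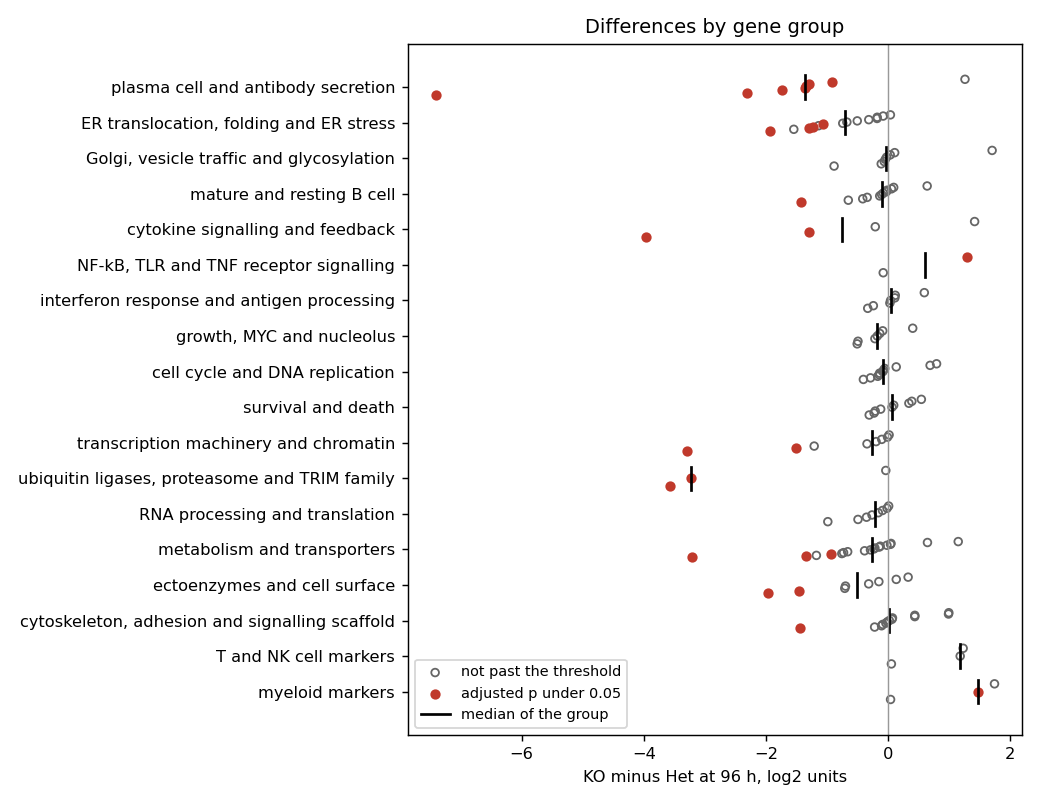
Difference KO minus Het at 96 h (x axis, log2 units) for the measured members of each gene group. Filled red points have an adjusted p under 0.05, open points do not, and vertical bars are group medians; 7 of 8 plasma cell genes and 4 of 14 ER genes are filled left of 0, and the division, growth, survival and interferon groups hold no filled point.

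Of the 3 measured myeloid markers and 3 measured T and NK markers, Tyrobp alone passed, against 7.55% of all genes in either direction. It was higher in KO cells. Tyrobp, the signalling adaptor DAP12 of myeloid and NK cells, was at 0.23, 0.96 and 0.58 in KO cells, against -1.61, -0.71, -1.11 and -0.13 in Het cells. Its groups were apart (1.48 ± 0.37, limma adjusted p 0.0481), and it passed under 7 of the 17 alternatives. Slpi, a secreted protease inhibitor, was apart and higher without passing, at -0.77, 0.72 and 0.15 in KO cells, against -1.50, -1.12, -3.15 and -1.06 in Het cells (1.74 ± 0.56, limma adjusted p 0.13). Cybb, the NADPH oxidase subunit of phagocytes that B cells also express, was near 3 in both genotypes and differed by 0.04 ± 0.28, with a sign that changed with the processing. Of 3 measured T and NK genes, 0 passed: Cd3g differed by 1.18 ± 0.57, Tcra by 1.23 ± 0.56 and Gzma by 0.05 ± 0.70, with overlapping groups and, for Gzma, a sign that changed with the processing. By limma 0 of the 3 had an unadjusted p under 0.05. The features of Cd3g had opposite signs, at 2.93 and -0.57, and Cd3g passed without Het 4 (1.73, limma adjusted p 0.0129). Tcra differed by 0.53 without KO 1, where 1 of its features was at 3.77. No erythroid marker of the 16 listed was measured.

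Of all genes, 20 (6.04%) were apart and higher in KO cells and 42 (12.7%) were apart and lower, 18.7% together. Among the higher ones that did not pass, Fth1, the ferritin heavy chain, was at 0.52, 1.68 and 0.78 in KO cells, against -0.77, 0.20, 0.09 and 0.49 in Het cells (0.99 ± 0.39, limma adjusted p 0.223), and without KO 2 its difference was 0.65. Akap12, a kinase scaffold, differed by 0.99 ± 0.35, Fap, a surface protease, by 0.83 ± 0.33, Gnpda1, a glucosamine-phosphate deaminase, by 0.62 ± 0.22, Lipa, lysosomal acid lipase, by 0.57 ± 0.26 and E330020D12Rik by 0.83 ± 0.33. The features of Akap12 gave 1.91 and 0.07, and with quantile normalization its difference was 0.04. Those of E330020D12Rik gave 1.54 and 0.11, and without KO 2 its difference was 0.46. Nfyb, a CCAAT-binding subunit, had features of opposite sign at 2.63 and -0.47, and their mean differed by 1.08 ± 0.34, or by 0.68 without KO 2. Among the lower ones, Rcn2, a calcium-binding ER protein, differed by -2.27 ± 0.64 (limma adjusted p 0.081) with features at -0.37 and -4.17, and it passed without KO 1 or without Het 4. Nup153, a nuclear pore protein, differed by -0.99 ± 0.29, Trappc12, of a vesicle tethering complex, by -0.80 ± 0.36 and Rps15a, a ribosomal protein, by -0.71 ± 0.25. Nup153 passed without Het 1.

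Over all 12292 features, named or not, 20 features (0.163%) were lower and 0 higher by limma at an adjusted p under 0.05, and 521 had an unadjusted p under 0.05. Of the 20, 8 had 1 symbol. The other 12 had differences between -6.86 and -2.80, and are not named here. The count was 4 without KO 1 or without KO 2, 5 without KO 3 and 13 with quantile normalization.

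Whether the difference at 96 h exceeded that before LPS was tested over 13 arrays, the 7 arrays at 96 h and 3 KO and 3 Het arrays at 0 h. By limma, 0 of 331 genes passed, 37 had an unadjusted p under 0.05, and the smallest adjusted p was 0.105, so no call is shown to be particular to 96 h. The count was 28 without Het 0 h replicate 3, 14 with array weights and 8 with centring over named features. Of the 25 genes called at 96 h, these held 8, 5 and 7, with Adck1, Ints7 and Trim65 each time. Every other alternative gave 0 genes. The 25 were picked by their difference at 96 h, so these counts are no separate test of them. Of the 23 genes lower at 96 h, 16 had a difference below 0 at 0 h as well, and 7 had one above 0: Iglv1, Ell2, Xbp1, Med9, Ndufa1, Mzb1 and Gramd1a. The share of all 331 genes below 0 at 0 h is not given here, so these counts show nothing particular to the 23. Jchain differed by -7.44 ± 1.44 at 0 h, as much as at 96 h, but by -5.04 without KO 0 h replicate 2. Its 0 h levels were -2.66, -10.27 and -3.46 in KO cells, against 1.83, 2.65 and 1.45 in Het cells, which did not overlap. Adck1, Trim27, Trim65, Ints7 and Socs2 differed by -0.69 ± 0.44, -0.82 ± 0.51, -0.59 ± 0.48, -0.83 ± 0.43 and -1.35 ± 0.46 at 0 h, each smaller in size than at 96 h. Without any 1 of the 0 h arrays these lay between -1.83 and -0.24. Differences at 0 h often rested on 1 array, as values without each 0 h array, an alternative chosen after seeing the data, showed. Mzb1 and Gramd1a differed by 4.85 ± 1.47 and 3.94 ± 1.36 at 0 h, and by 2.76 and 1.75 without Het 0 h replicate 2, which was at -8.60 and -8.31. Prdm1 differed by -3.48 ± 1.27, and by -1.88 without KO 0 h replicate 2, which was at -5.59. Ndufa1 differed by 2.00 ± 0.85, and by 0.64 without Het 0 h replicate 2. Iglv1, Ell2, Xbp1 and Med9 differed by 0.76 ± 0.71, 1.31 ± 0.95, 0.62 ± 0.59 and 0.33 ± 0.46, and the sign of Iglv1, Ell2 and Xbp1 changed when 1 array was left out. In all, 6 of the 23 lower genes changed sign at 0 h in this way. Ikbke, higher at 96 h, differed by -0.74 ± 0.45 at 0 h, and by -0.35 without KO 0 h replicate 2. Tyrobp differed by 1.74 ± 0.74 at 0 h, and by 0.67 without Het 0 h replicate 2.

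**Figure D5:**
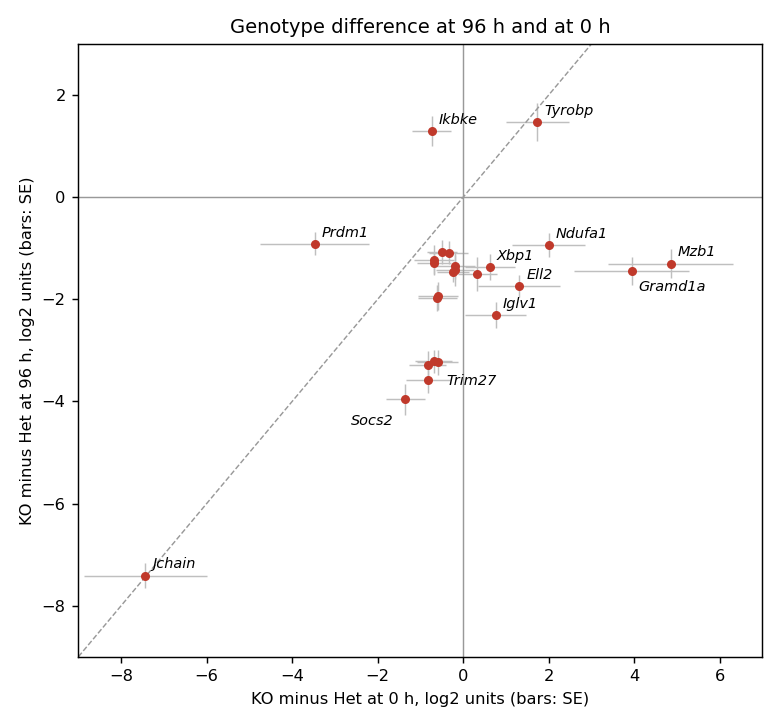
Difference KO minus Het at 0 h (x axis) and at 96 h (y axis) for the 25 genes past the threshold at 96 h, in log2 units; bars are standard errors, from 7 arrays at 96 h and from the 13-array fit at 0 h, and the dashed line marks equal differences. Jchain lies on the line at -7.44 and -7.41, though its 0 h difference was -5.04 without KO 0 h replicate 2. Mzb1 and Gramd1a lie above 0 at 0 h and below 0 at 96 h.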

How the data were processed

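The deposited values are log ratios of the 2 channels of each array, taken as log2 from their range and as sample (Cy5) over pool (Cy3). For base, direction, scanner, normalization and filters the authors' choices are not given in the sources used; were the ratio reversed, every difference would change sign. Signal over background was not analysed here. Total RNA was extracted with Trizol, per the labels' protocols. The median over 12292 features was subtracted from each array, and features with 1 symbol (559) were averaged into 331 genes; 148 of 222 genes with several features had features of 1 sign. KO and Het were compared with limma 3.58.1 (lmFit, eBayes) in R 4.3.3, tested on simulated data, 2-sided, with Benjamini-Hochberg adjustment. An exact permutation test of 3 against 4 arrays cannot go below p 0.0571 and was not used.

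The members, the gene lists, the fit on the 7 arrays alone and the tests were chosen with earlier results of these data known. Named were every gene past the threshold, the 12 highest and 12 lowest others with groups apart, and up to 4 members per list with the largest differences, 84 genes in all. Some members of lists with no calls are given by range only. Deviations of arrays with the same replicate number correlated at 0.07, -0.07 and -0.17, which gave no sign of pairing. So few arrays cannot exclude it, and the labels do not state it. Alternatives were other centring, quantile normalization, all 23 mouse arrays (3 of them with conflicting genotype labels, none at 96 h), array weights, feature medians, missing extremes, robust variance, the replicate block, 1 range of database numbers and leaving out each array.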

Additional observations from a re-analysis of the deposited data

Results flagged for a closer look

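In the 84 named genes, the 4 Het arrays were checked for 1 array far from the others, a check that chance alone meets in about 1 in 20 groups. It was met by 2 genes, Fes and Foxp1, no more than that rate gives over 84 genes. Both were met on Het 3, the array with the largest spread of deposited values. Fes was at -3.35 there, against -0.77, -1.05 and -1.19 on the other Het arrays. Foxp1, a transcription factor of resting B cells, was at -2.36 there, against 1.40, 1.69 and 2.09. Without Het 3 the Foxp1 difference was -0.38, against 0.64 with it. Without Het 3 the Fes difference was 0.83, against 1.42 with it.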

How the results depend on the processing

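Whether replicate numbers pair the arrays is not known. With the replicate block, 15 genes were called at 96 h, 12 of them among the 25, 3 in the plasma cell group, 1 in the ER group and 0 over all features. With all 23 arrays the counts were 9 genes, 2 in the plasma cell group and 0 in the ER group, and with array weights 38 genes. Over all features, quantile normalization gave 13. The interaction with 0 h gave 8 with centring over named features and 14 with array weights. Leaving out 1 array gave 11 to 34 genes, 3 to 7 in the plasma cell group, 1 to 5 in the ER group, 4 to 23 features and 0 to 28 interaction genes. All 25 called genes kept their sign, which leaving out or reweighting arrays could not change, because their groups did not overlap. The median difference of all genes, -0.07, was 0.08 with centring over named features and -0.34 within the range of database numbers. Single-channel signals were not analysed here, so limits set by dim spots are unknown.

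Of the 84 named genes, 72 kept their sign throughout; the other 12 were not called. Centring over the named features turned Rab7 (0.035), Traf4 (0.068) and Psmd1 (0.11). Quantile normalization turned Ccnd1 (-0.17), Rheb (-0.13), Plk1 (-0.11) and Gzma (-0.081). The replicate block turned Traf4 (0.0062), Igtp (0.077) and Psmd1 (0.11). The range of database numbers with both genotypes turned Tap1 (-0.29), Vcl (-0.12) and Cybb (-0.33), and array weights turned Cybb (-0.035). Over fits without 1 array, differences ranged from -0.38 to 1.10 for Foxp1, -0.32 to 0.17 for Traf4, -0.49 to 0.077 for Igtp, -0.11 to 0.32 for Tap1, -0.12 to 1.24 for Plk1, -0.21 to 0.12 for Psmd1, -0.71 to 0.92 for Gzma and -0.14 to 0.19 for Cybb.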
